A study of Mus musculus with 30 samples.

Results

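The step from undifferentiated embryonic stem cells (day 0) to embryoid bodies at day 4 was described here in C129 wild type, a mouse embryonic stem cell line without the mutations studied in the rest of the series. Its members were chosen by their labels as the 4 libraries of that line at those days, 2 per day, out of 30 libraries of 5 lines at 3 time points. Per the labels, day 0 cells grew on gelatin in serum with leukaemia inhibitory factor (LIF), and embryoid bodies were made from them in LIF-free medium on dishes to which they do not attach. The day 4 group therefore differed from day 0 in time, in LIF and in the form of the culture, and these cannot be told apart. The same step was read for comparison in Pali wild type, a second wild type line, and in the Aebp2 gene trap (genotype Aebp2gt/gt), with 2 libraries per day each. No allele or agent was shared by all groups, and the labels give no strain, sex or number of clones.

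LIF keeps mouse embryonic stem cells undifferentiated by binding its receptor and activating the transcription factor STAT3, which drives naive factors such as Klf4, Tbx3 and Tfcp2l1. When LIF is withdrawn, such cells leave the naive state, pass through a state that resembles the epiblast of the embryo shortly after implantation, and only then take up the fates of the germ layers. Embryoid bodies are floating aggregates in which these steps run together. In RNA from whole cultures, fewer cells of a type and less RNA per cell cannot be told apart.

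Values are the normalised counts the authors deposited, given in the order replicate 1, replicate 2. They are not corrected for gene length, so levels are compared between libraries and not between genes. Log2 changes are day 4 minus day 0 of log2(value + 4), with the standard error (SE) and the adjusted p of limma's moderated test over 15712 genes. Parentheses after a gene's values hold its log2 change ± SE and its adjusted p. A gene is called where that p is below 0.05. Totals of the 4 libraries ran from 16596200 to 18336800 normalised counts, and the steps between low values put their depth at an estimated 13198293 to 28151934 reads. Across genes, which are not independent, duplicates had a Pearson r of 0.959 at day 0 and 0.950 at day 4. The labels call the libraries biological duplicates and say no more of their origin. The p-values therefore measure only the spread between such duplicates, estimated over all 30 libraries in 15 groups and not from these 4 alone. All 7 fixed markers of embryonic stem cells were at 100 or more in each of the 4 libraries. The fixed markers of trophoblast summed to between 53.4 and 116 per library, the 4 of heart to between 111 and 162, and those of fibroblasts, the cell type of feeder layers, to between 141 and 286, with 1 or 2 of the 7 fibroblast markers at 0 in each library. The 4 neural markers (Pax6, Sox1, Nes and Tubb3) were at 100 or more in every library and summed to between 3254 and 4762. Within that sum Tubb3 fell and Nes rose, as given further on. Blood and endothelial markers summed to 101 and 70.3 in the day 0 libraries against 193 and 346 in those of day 4. Mesoderm markers summed to 136 and 137 at day 0 against 349 and 484 at day 4. Most of each mesoderm sum was Eomes, at 101 and 81.3 at day 0, then 304 and 381 at day 4. Visceral endoderm markers summed to between 128 and 179.7. The wider list of 21 heart and muscle genes summed to 18333 and 13658 in the day 0 libraries against 1530.1 and 1393 in those of day 4, mostly from the titin gene Ttn, which was chosen after its values were seen and had 17414 and 12980.4 at day 0, then 952 and 525 at day 4 (-4.40 ± 0.37, adjusted p = 2.38e-07).

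At day 4, 2205 genes were higher and 2360 lower than at day 0, which is 14% and 15% of the 15712 genes tested and 29.1% together. Among them 1160 rose and 1123 fell at least 2-fold, and 145 rose and 189 fell at least 8-fold on the log2(value + 4) scale. The median log2 change over all tested genes was -0.01. Genes of naive pluripotency, LIF targets and genes of the 2-cell-like state were largely lower, and genes of the primed epiblast were largely higher. Lists of mesoderm, endoderm and neural regulators held calls in both directions, with 6 of 24, 5 of 16 and 10 of 32 tested members called, near the 29.1% of all tested genes. Many of the mesoderm and endoderm regulators had low values, which limits such counts. The number of calls fell to between 3215 and 3700 when 1 of the 4 libraries was left out, and to 2323 when the spread was estimated from these 4 libraries alone.

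**Figure D1:**
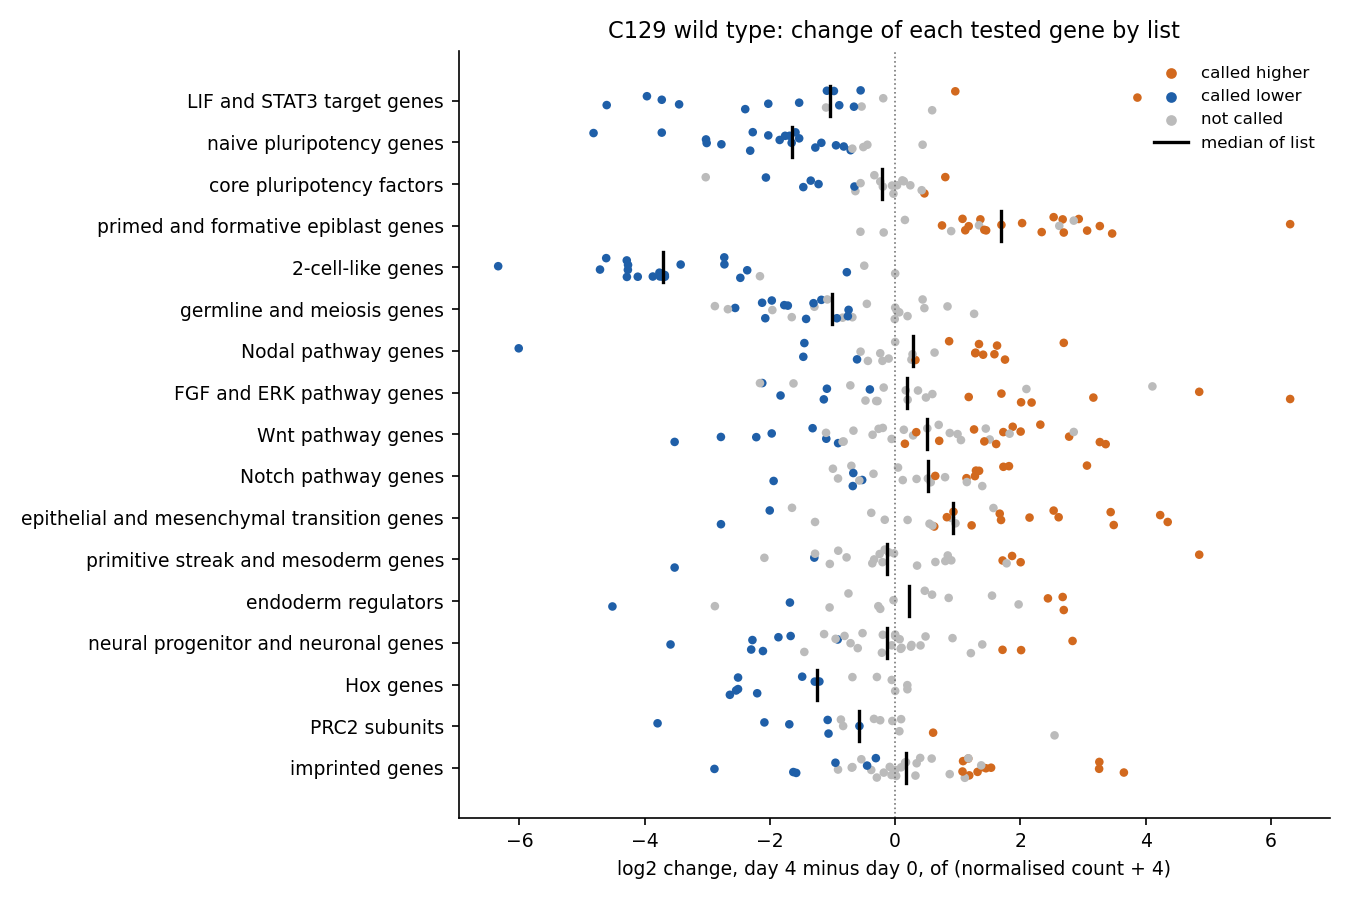
Log2 change from day 0 to day 4 in C129 wild type (x axis, log2 of normalised count + 4) of each tested gene of 17 gene lists (y axis). Each point is 1 gene, coloured where it was called higher or lower, and the black bar is the median of the list; the medians of the 2-cell-like genes (-3.71) and the naive genes (-1.65) lie farthest to the left and that of the primed genes (1.70) farthest to the right.

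Targets of LIF and STAT3 fell together. Of 18 tested members of the list, 12 fell, 2 rose and 4 were not called, with a median log2 change of -1.03; without 1 library, 11 or 12 fell, and without day 0 replicate 1 only 1 rose. Socs3, which encodes the feedback inhibitor of this pathway and lies on chromosome 11, 117966079 to 117970047, minus strand (GRCm38), had 2294 and 1754 at day 0, then 62.8 and 98.1 at day 4, a log2 change of -4.61 ± 0.92 (SE), adjusted p = 0.000976. Icam1, an adhesion molecule induced by STAT3 and by inflammation, had 2668 and 2169.7 at day 0, then 437 and 473 at day 4 (log2 change -2.39 ± 0.19, adjusted p = 9.62e-08). In both genes the day 0 pair lay far above the day 4 pair. Klf5, a zinc finger factor of the naive network, went the same way with 1748 and 1571 at day 0, then 601 and 541 at day 4 (log2 change -1.53 ± 0.18, adjusted p = 5.40e-06). Pim2, a serine/threonine kinase of the Pim family, moved against the list: it had 424 and 465 at day 0, then 5509.8 and 7743 at day 4 (log2 change 3.87 ± 0.43, adjusted p = 3.62e-06), while its relatives Pim1 and Pim3 fell. The other member that rose, Socs2, had 858 and 1482 at day 0, then 2369 and 2037 at day 4, with an adjusted p of 0.00257 over all libraries and of 0.075 without day 0 replicate 1.

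The pathway above these targets changed less evenly, and its calls stand beside 14% of all tested genes called higher and 15% lower. Of 13 tested components of the LIF receptor and STAT3 pathway, 1 rose, 3 fell and 9 were not called, with a median log2 change of -0.19; without day 0 replicate 1, 2 rose. Stat3 itself, the factor that LIF activates, had 3265 and 3042 at day 0, then 573 and 707 at day 4 (-2.30 ± 0.13, adjusted p = 2.30e-09). Lifr, the LIF receptor, had 5797 and 5889 at day 0, then 3463 and 4007 at day 4 (-0.65 ± 0.18, adjusted p = 0.009), and the adjusted p was 0.0823 without day 4 replicate 1. The adaptor Grb2 fell by a smaller amount (-0.55 ± 0.12, adjusted p = 0.00269). Ptpn11, the phosphatase SHP2 of the same receptor complex, rose (0.31 ± 0.07, adjusted p = 0.00133).

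The start sites of Socs3 and Icam1 are shown because both hold the letters TTCNNNGAA, the palindrome that STAT dimers are known to bind, which reads the same on both strands. This motif was searched after the fall of the LIF targets had been seen. Each window runs from 250 bases before to 50 bases after the start site of the gene (RefSeq, GRCm38.p6, the assembly of mm10), at chr11:117969317-117969616, minus strand and at chr9:21015690-21015989, plus strand, with the match in capitals.
Socs3: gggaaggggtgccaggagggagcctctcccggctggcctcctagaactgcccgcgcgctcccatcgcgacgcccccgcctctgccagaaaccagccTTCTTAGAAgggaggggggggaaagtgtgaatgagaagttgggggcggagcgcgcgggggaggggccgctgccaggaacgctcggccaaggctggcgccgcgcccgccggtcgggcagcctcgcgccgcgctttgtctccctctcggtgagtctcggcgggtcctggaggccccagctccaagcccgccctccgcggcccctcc
Icam1: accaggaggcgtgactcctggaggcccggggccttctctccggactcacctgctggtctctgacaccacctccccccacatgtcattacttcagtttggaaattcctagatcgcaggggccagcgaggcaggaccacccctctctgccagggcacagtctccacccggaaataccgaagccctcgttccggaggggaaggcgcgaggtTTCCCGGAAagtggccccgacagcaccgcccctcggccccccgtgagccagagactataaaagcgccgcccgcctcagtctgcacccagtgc
The matches, TTCTTAGAA and TTCCCGGAA, begin 154 bases and 42 bases before the RefSeq start site. For Socs3 that site lies 681 bases inside the GENCODE span given above, whose end on that side is set by another transcript, so the Socs3 window lies wholly within that span; for Icam1 it lies 45 bases before the GENCODE start. Of the 15 LIF targets with a window, 4 hold the motif in at least 1 window (Socs3, Icam1, Cish and Sgk1, the last in 1 of its 6 windows). Of the 12324 tested genes with a window, 8.01% hold it. Windows cover only 78.4% of tested genes and the motif was picked afterwards, so no excess is read from these shares. Cish, which holds it, was not called, and Klf4 and Tfcp2l1, which fell, do not hold it in these windows; a match is no measure of binding.

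Most naive pluripotency genes fell. Of 23 tested members 19 fell and the other 4 were not called (Nr5a2, Cbx7, Pecam1 and Dppa3), with a median log2 change of -1.65, where 15% of all tested genes fell. Without 1 library, between 14 and 19 fell. Klf4, a factor of the original reprogramming set, had 3209 and 2948 at day 0, then 217 and 241 at day 4 (-3.73 ± 0.36, adjusted p = 7.74e-07). Tbx3, a T-box factor that LIF sustains, had 2117 and 1888 at day 0, then 118 and 37.4 at day 4 (-4.82 ± 0.50, adjusted p = 1.71e-06). Zfp57, which protects DNA methylation at imprinted loci, had 5201 and 4779 at day 0, then 700.4 and 533 at day 4 (-3.02 ± 0.15, adjusted p = 1.27e-09). The pairs did not overlap in any of these. Tfcp2l1, a target of STAT3 with a central place in the naive network, went from 15106 and 13614 to 3867 and 3203 (-2.03 ± 0.25, adjusted p = 1.30e-05). Zfp42 (Rex1), the usual reporter of the naive state, went from 12745 and 8467 to 3835 and 2459.6 (-1.76 ± 0.31, adjusted p = 0.000319). The secreted protein gene Spp1 (osteopontin) was also among the lower genes (-2.31 ± 0.23, adjusted p = 1.33e-06).

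Other naive factors fell by less. Esrrb, an orphan nuclear receptor, had 8209 and 8993 at day 0, then 5257 and 3788 at day 4 (-0.94 ± 0.23, adjusted p = 0.00493), and its adjusted p was 0.0807 without day 4 replicate 2. Klf2 had 3582 and 4039 at day 0, then 2682 and 2009 at day 4 (-0.71 ± 0.20, adjusted p = 0.0128), with an adjusted p of 0.158 without day 4 replicate 2 and 0.0889 without day 0 replicate 2. Prdm14, which represses the enzymes of new DNA methylation, had 729.7 and 711 at day 0, then 378 and 264 at day 4 (-1.18 ± 0.33, adjusted p = 0.0124), with 0.126 without day 4 replicate 2 and 0.0637 without day 0 replicate 1 and 0.0511 without day 0 replicate 2. Each of these 3 depended on single libraries for its call, while the day 4 pair lay below the day 0 pair in all of them. Dppa3 (Stella), an oocyte factor expressed in part of a naive culture, had 70.5 and 168 at day 0, then 107 and 207 at day 4; its pairs overlapped, and it was not called (0.44 ± 0.49, adjusted p = 0.565).

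In the shared core of pluripotency, calls were not far from the share over all genes. Of 20 tested core factors 5 fell, 2 rose and 13 were not called, beside 29.1% called of all tested genes, with a median log2 change of -0.22. Pou5f1 (Oct4), required in naive and primed cells alike, had 21926 and 21670.1 at day 0, then 21141 and 17101 at day 4, with 1 day 4 library near the level of day 0 and the other lower (-0.20 ± 0.25, adjusted p = 0.62). Sox2, its partner, had 9438 and 9099 at day 0, then 8654 and 7131 at day 4 (-0.24 ± 0.10, adjusted p = 0.0939); without day 4 replicate 1 the adjusted p was 0.0243. Neither was called, which does not show that their levels were the same. Nanog, which stabilises the naive state, did fall, with 17341 and 14623 at day 0, then 6662 and 6976 at day 4 (-1.22 ± 0.17, adjusted p = 4.20e-05). Dppa2, a regulator that opens chromatin at early embryonic genes, had 6765 and 5903 at day 0, then 1939.6 and 1173 at day 4 (-2.06 ± 0.24, adjusted p = 5.07e-06). Dppa5a, an RNA-binding protein abundant in these cells, had 17161 and 16361 at day 0, then 7536 and 5747 at day 4 (-1.35 ± 0.15, adjusted p = 4.48e-06). Rif1, a telomere and replication timing factor, fell by less (-0.65 ± 0.12, adjusted p = 0.00034). The rises of Utf1 (0.80 ± 0.23, adjusted p = 0.0153) and Lin28a (0.47 ± 0.17, adjusted p = 0.0437) were both small. Utf1 was called only without day 0 replicate 2 when 1 library was left out (adjusted p 0.0571 without day 4 replicate 2, 0.072 without day 4 replicate 1 and 0.227 without day 0 replicate 1). Lin28a was no longer called without any 1 of the 4, with adjusted p between 0.0969 and 0.175, so that 0 or 1 core factors rose when a library was left out.

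**Figure D2:**
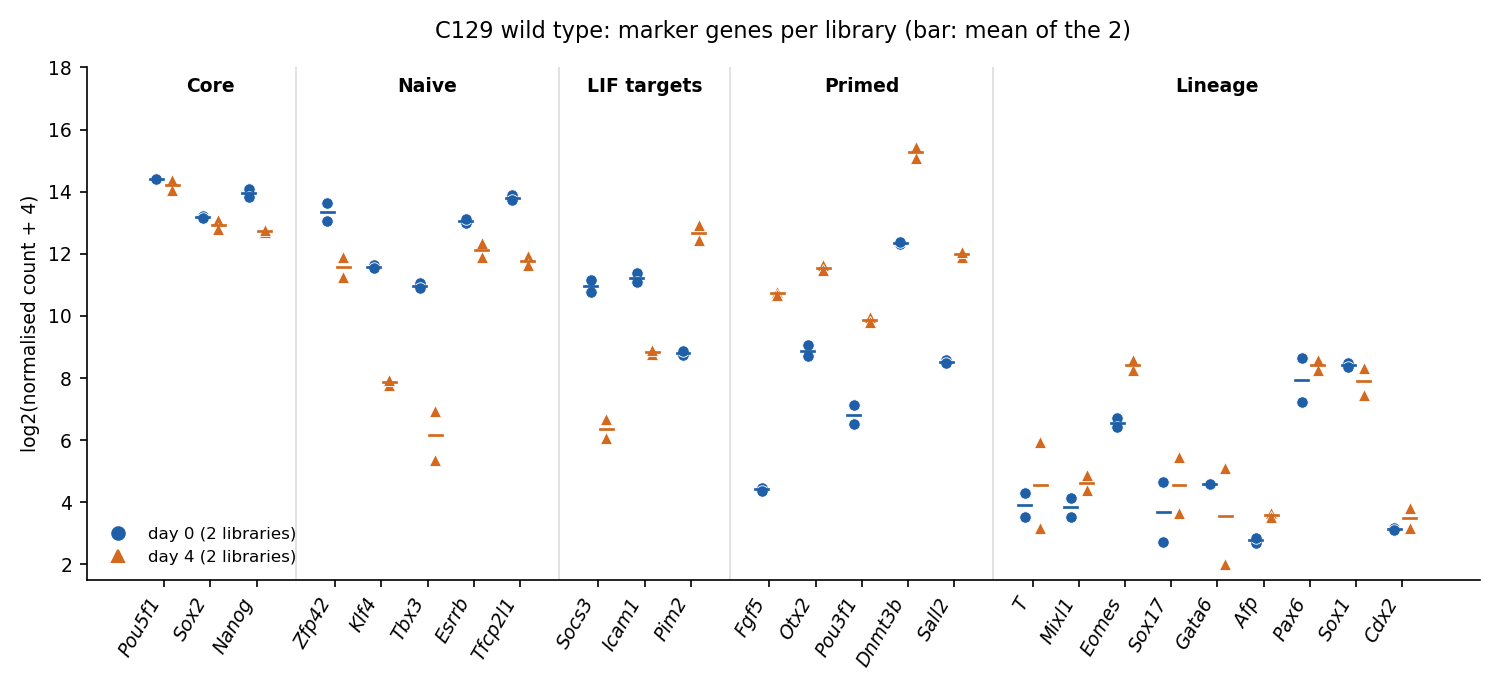
Level of 25 marker genes in each C129 wild type library (y axis, log2 of normalised count + 4), circles for the 2 libraries of day 0, triangles for the 2 of day 4 and bars for their means. Fgf5, Pou3f1, Dnmt3b and Sall2 lie higher at day 4 in both libraries and Klf4, Tbx3 and Socs3 lower in both, while Pou5f1 and most lineage genes overlap or lie close.

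Primed and formative epiblast genes rose. Of 25 tested members 18 rose and the other 7 were not called, with a median log2 change of 1.70, beside 14% of all tested genes called higher; 17 or 18 rose without 1 library. Fgf5, a growth factor used as the marker of the epiblast after implantation and located on chromosome 5, 98254184 to 98277030, plus strand (GRCm38), had 18.2 and 16.6 at day 0, then 1739 and 1635 at day 4, a log2 change of 6.30 ± 0.51 (SE), adjusted p = 1.39e-07. Both day 4 values lay far above both of day 0. Pou3f1 (Oct6), a POU factor of the epiblast, had 88.1 and 135 at day 0, then 1000 and 887 at day 4 (3.06 ± 0.35, adjusted p = 4.17e-06). Otx2, which directs the exit from the naive state and later the forebrain, had 532 and 413 at day 0, then 3164 and 2867 at day 4 (2.67 ± 0.24, adjusted p = 4.00e-07). Sall2, a zinc finger factor, had 375 and 354 at day 0, then 3832 and 4303 at day 4 (3.46 ± 0.24, adjusted p = 2.38e-08). Sox11, a SoxC factor of progenitors, had 525 and 596 at day 0, then 2691 and 3008 at day 4 (2.34 ± 0.24, adjusted p = 1.83e-06). Duplicates of these genes lay close to each other beside the gap between days.

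The Fgf5 start site is shown with that of Zscan4c, a gene of the 2-cell-like state described further on, because one of these genes rose and the other fell, and their windows differ in content of CpG, the dinucleotide that vertebrate DNA methylation marks (CG in capitals; RefSeq, GRCm38.p6; chr5:98253934-98254233, plus strand, and chr7:11005495-11005794, plus strand).
Fgf5: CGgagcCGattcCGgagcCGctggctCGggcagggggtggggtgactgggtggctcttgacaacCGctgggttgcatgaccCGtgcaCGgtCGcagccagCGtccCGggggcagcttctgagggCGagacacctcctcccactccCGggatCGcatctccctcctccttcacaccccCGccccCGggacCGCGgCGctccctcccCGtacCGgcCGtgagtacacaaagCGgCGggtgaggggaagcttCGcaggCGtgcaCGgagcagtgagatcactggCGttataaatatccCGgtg
Zscan4c: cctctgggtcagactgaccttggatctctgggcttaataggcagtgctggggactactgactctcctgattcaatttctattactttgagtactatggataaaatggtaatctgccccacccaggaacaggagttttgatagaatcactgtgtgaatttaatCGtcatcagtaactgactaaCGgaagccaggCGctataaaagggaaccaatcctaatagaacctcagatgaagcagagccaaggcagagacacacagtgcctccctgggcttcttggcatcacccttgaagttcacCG
The Fgf5 window holds 29 CpG, 0.828 of the number its C and G content would give, and that of Zscan4c holds 4, a ratio of 0.242. The Dnmt3b window holds 30. Only 78.4% of the tested genes had a window, under the 80% set as the minimum, so a comparison of base composition between called and other genes was void. The genes shown were picked for their contrast. Whether CpG content goes with the direction of change was not tested, and these windows cannot show it.

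The enzymes of DNA methylation moved in both directions. Of 19 tested genes 3 rose, 4 fell and 12 were not called, beside 14% of all tested genes called higher and 15% lower. Dnmt3b, the de novo methyltransferase of the epiblast, had 5060.1 and 5269.5 at day 0, then 35045 and 44276 at day 4 (2.93 ± 0.37, adjusted p = 1.30e-05). Dnmt3a, its relative, had 2659.7 and 2723 at day 0, then 6171 and 5543 at day 4 (1.12 ± 0.16, adjusted p = 4.39e-05). Dnmt3l, the cofactor of both that has no catalytic activity, went the other way with 8554 and 7092 at day 0, then 3320.1 and 2099 at day 4 (-1.56 ± 0.24, adjusted p = 0.000117). Uhrf1, which guides maintenance methylation to replicated DNA, fell by less (-0.52 ± 0.12, adjusted p = 0.00288). The de novo enzymes were thus higher and their cofactor lower in both day 4 libraries than in both day 0 libraries.

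Genes of the Nodal pathway, which patterns the epiblast, went in both directions. Of 23 tested members 10 rose, 4 fell and 9 were not called, with a median log2 change of 0.28. Over all tested genes 14% were called higher and 15% lower. Without 1 library 7 or 8 rose and 3 or 4 fell, and 5 rose and 4 fell when these 4 libraries alone set the spread. The ligand Nodal had 3028 and 2418 at day 0, then 2701 and 1947 at day 4 and was not called (-0.24 ± 0.25, adjusted p = 0.524). Its feedback inhibitor Lefty1, with 3369 and 4173 at day 0, then 3371 and 2278 at day 4, overlapped between days and was not called. Lefty2, the related inhibitor, had 5376 and 5594 at day 0, then 7685 and 5607 at day 4; its day 4 pair stood above that of day 0, 1 of them by little, and it was not called. Among the members that rose, the receptor gene Acvr2b had 2223 and 2386 at day 0, then 5544 and 5638 at day 4 (1.28 ± 0.12, adjusted p = 8.10e-07). Furin, a protease that matures Nodal, had 191 and 282 at day 0, then 719 and 687 at day 4 (1.58 ± 0.16, adjusted p = 1.12e-06). The effector Smad3 had 349.8 and 277 at day 0, then 781 and 805 at day 4 (1.34 ± 0.20, adjusted p = 8.12e-05). Foxh1, the DNA-binding partner of the Smads, rose too (1.40 ± 0.25, adjusted p = 0.000312). Inhbb, a subunit of activin B, fell from 957 and 1285 to 17.2 and 10.1 (-6.01 ± 0.40, adjusted p = 1.60e-08). Among the called falls named for their size by the rule given with the processing, it was one of the 3 largest. Tdgf1 (Cripto), the Nodal coreceptor, fell too, with 19511 and 18180.5 at day 0, then 7255 and 6397 at day 4 (-1.47 ± 0.32, adjusted p = 0.00221). The Nodal convertase Pcsk6 fell as well (-1.45 ± 0.15, adjusted p = 1.70e-06).

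Within the FGF and ERK pathway 7 of 26 tested genes rose, 5 fell and 14 were not called, beside 14% of all tested genes called higher and 15% lower. Fgf4, the autocrine ligand that pushes naive cells towards commitment, fell from 5124 and 5043 to 2874 and 1849.7 (-1.14 ± 0.24, adjusted p = 0.00158). Fgf17, another ligand, fell from 301 and 345 to 72.7 and 69.2 (-2.12 ± 0.32, adjusted p = 8.21e-05). The ligand Fgf8 was listed at 0 in both day 0 libraries and at 123 and 101 at day 4 (adjusted p = 4.29e-06; no fold is given against a group at 0, and in this table a listed 0 can be a failed estimate). Ligands therefore went both ways, as did the feedback genes. Dusp4, a phosphatase of ERK, had 349.8 and 424 at day 0, then 3564 and 3404 at day 4 (3.16 ± 0.16, adjusted p = 1.27e-09). The inhibitor Spry1 had 303 and 304 at day 0, then 1464 and 1310.5 at day 4 (2.18 ± 0.20, adjusted p = 4.07e-07). Its relative Spry4 went from 5204 and 5904 to 1899 and 1275 (-1.83 ± 0.28, adjusted p = 0.000105). The ETS factor Etv5, a target of this pathway, fell slightly (-0.40 ± 0.09, adjusted p = 0.0017).

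The Wnt and Notch lists each held more rises than falls, where 14% of all tested genes rose and 15% fell. Of 39 tested Wnt genes 13 rose and 7 fell (median log2 change 0.51), and without 1 library between 9 and 15 rose. Several Frizzled genes, which encode Wnt receptors, rose. Fzd7 had 2248 and 2492 at day 0, then 8491 and 7242 at day 4 (1.73 ± 0.14, adjusted p = 9.43e-08). Fzd2 had 114 and 174 at day 0, then 929 and 1058 at day 4 (2.78 ± 0.23, adjusted p = 1.78e-07). Fzd8 had 135 and 126 at day 0, then 470.4 and 509 at day 4 (1.88 ± 0.18, adjusted p = 5.88e-07). Another receptor, Fzd5, fell (-1.32 ± 0.12, adjusted p = 4.00e-07). Sfrp2, a secreted Wnt antagonist, rose (2.32 ± 0.23, adjusted p = 1.34e-06). Porcn, the enzyme that acylates Wnt ligands, fell (-1.10 ± 0.25, adjusted p = 0.00285). Cdx1, a Wnt target of the primitive streak, also fell, with 49.1 and 48.2 at day 0, then 0 and 1.26 at day 4 (-3.52 ± 0.52, adjusted p = 6.14e-05). Of 25 tested Notch genes 8 rose and 4 fell (median log2 change 0.52), and 2 fell without day 0 replicate 1 or without day 4 replicate 1. The receptors Notch2 (1.14 ± 0.12, adjusted p = 1.72e-06) and Notch3 (1.73 ± 0.29, adjusted p = 0.000217) and the feedback target Nrarp (1.34 ± 0.23, adjusted p = 0.000249) rose, and Rbpj, the DNA-binding effector, fell (-0.68 ± 0.13, adjusted p = 0.000685).

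BMP genes were called in both directions, near the 29.1% called of all tested genes, of which 14% were higher and 15% lower. Of 25 tested members 1 rose, 5 fell and 19 were not called; 3 fell without either day 0 library or without day 4 replicate 1, when 2 rose. Bmp4, which with LIF keeps serum cultures undifferentiated, had 419.6 and 469.7 at day 0, then 125 and 75.1 at day 4 (-2.15 ± 0.48, adjusted p = 0.00238). Its target Id1, an inhibitor of bHLH factors, had 321 and 391 at day 0, then 81.3 and 98.1 at day 4 (-1.94 ± 0.33, adjusted p = 0.000233). Msx2, a homeobox target of BMP, fell from low values (59.1 and 58 at day 0, then 14.8 and 7.54 at day 4; -2.09 ± 0.36, adjusted p = 0.000244). The member that rose was Id4, with 84.3 and 70.3 at day 0, then 334 and 229 at day 4 (1.79 ± 0.33, adjusted p = 0.000531).

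The list of epithelial and mesenchymal transition genes held more rises than falls, where 14% of all tested genes rose and 15% fell. Of 25 tested members 13 rose, 2 fell and 10 were not called, with a median log2 change of 0.93; 10 or 11 rose without 1 library. The 4 rises with the lowest p were all epithelial. Rab25, a small GTPase of apical recycling endosomes, had 15.1 and 15.6 at day 0, then 413 and 313 at day 4 (4.23 ± 0.28, adjusted p = 1.60e-08). Claudins seal tight junctions, and Cldn7 had 64.4 and 61.3 at day 0, then 640.3 and 812 at day 4 (3.44 ± 0.38, adjusted p = 3.64e-06). Cldn3 had 54.1 and 64.5 at day 0, then 265 and 285 at day 4 (2.14 ± 0.20, adjusted p = 5.76e-07). Crb3, a Crumbs protein of the apical membrane, had 60.4 and 52.1 at day 0, then 381 and 346 at day 4 (2.61 ± 0.29, adjusted p = 3.12e-06). The 2 that fell are mesenchymal: Vim, the intermediate filament vimentin, had 7162 and 8034 at day 0, then 1028 and 1177 at day 4 (-2.78 ± 0.37, adjusted p = 2.10e-05). The repressor Zeb1 had 64.2 and 95.1 at day 0, then 11.1 and 23.9 at day 4. Zeb1 fell by 2.00 ± 0.56 in log2 units, with an adjusted p of 0.0113 over all libraries, of 0.114 without day 4 replicate 1 and 0.0869 without day 0 replicate 2. Cdh1, E-cadherin, rose slightly (0.62 ± 0.18, adjusted p = 0.0153), but without any 1 of the 4 libraries it was no longer called (adjusted p between 0.0597 and 0.0692). Cdh2, N-cadherin, had 138 and 246 at day 0, then 275 and 436 at day 4 and was not called (0.89 ± 0.49, adjusted p = 0.192), although its day 4 values stood above those of day 0.

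Basement membrane and collagen genes were called in both directions: 4 of 35 tested rose and 7 fell, near the 14% and 15% of all tested genes, with a median log2 change of -0.05 (2 and 4 without day 0 replicate 1; 2 rose without day 0 replicate 2 and 1 without day 4 replicate 2). Lama1, the laminin chain of the first basement membranes, fell from 2195 and 2447 to 212 and 131 (-3.77 ± 0.38, adjusted p = 1.62e-06). Nid1 (nidogen), which links laminin to collagen IV, had 6249 and 5149.6 at day 0, then 1578 and 1075 at day 4 (-2.12 ± 0.22, adjusted p = 1.70e-06). Sparc, a matricellular protein abundant in parietal endoderm, had 3712 and 3277 at day 0, then 1216 and 1659 at day 4 (-1.29 ± 0.16, adjusted p = 1.34e-05). The integrin gene Itga5, the fibronectin receptor, fell as well (-1.44 ± 0.14, adjusted p = 7.81e-07). The members that rose were the laminin chain gene Lamb1 (0.85 ± 0.23, adjusted p = 0.0102; 0.0665 without day 4 replicate 2 and 0.0534 without day 0 replicate 1), the collagen gene Col18a1 (0.70 ± 0.16, adjusted p = 0.00234; 0.0617 without day 4 replicate 1), the collagen chaperone gene Serpinh1 (1.27 ± 0.32, adjusted p = 0.0053; 0.0621 without day 4 replicate 2 and 0.0828 without day 0 replicate 2) and, at low values, Col6a2 (1.05 ± 0.34, adjusted p = 0.0268; 0.262 without day 4 replicate 2 and 0.073 without day 0 replicate 1 and 0.121 without day 0 replicate 2), where the adjusted p after each semicolon is that without the library named.

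Regulators of the germ layers were called about as often as other genes, but many had low values. The 28 streak and mesoderm genes in the table summed to 538 and 438 at day 0, then 692 and 1090 at day 4. With a mean of at least 50 required, 4 of them were left to test, of which 2 rose and 0 fell. Of the endoderm regulators 8 were left, of which 3 rose and 0 fell. The share of calls therefore cannot be told apart from an effect of low counts. Of 24 tested genes of primitive streak and mesoderm 4 rose, 2 fell and 18 were not called, beside 29.1% called of all tested genes, with a median log2 change of -0.13; without day 4 replicate 1, 7 rose, and without day 4 replicate 2 or day 0 replicate 1, 2 rose, while 1 fell without day 4 replicate 1 or either day 0 library. Brachyury (T), the classic streak marker, had 7.55 and 15.6 at day 0, then 4.93 and 57.8 at day 4, and Mixl1 had 7.55 and 13.7 at day 0, then 17.2 and 25.1 at day 4. The T-box factor Eomes, active in streak and early endoderm, had 101 and 81.3 at day 0, then 304 and 381 at day 4 (1.87 ± 0.48, adjusted p = 0.00616), and its adjusted p was 0.0525 without day 4 replicate 2. The ligand Wnt3 rose from 2.52 and 12.4 to 30.8 and 45.3 (2.00 ± 0.48, adjusted p = 0.00387), with an adjusted p of 0.0898 without day 0 replicate 1. Of 16 endoderm regulators 3 rose, 2 fell and 11 were not called; Otx2, which is also a primed gene, was one of the 3, and without day 4 replicate 2 or day 0 replicate 1 the counts were 1 and 1. Sox17 had 21.3 and 2.6 at day 0, then 8.52 and 39.6 at day 4. Gata6 had 20.1 and 20.2 at day 0, then 0 and 30.2 at day 4. The yolk sac product Afp had 2.52 and 3.26 at day 0, then 8.62 and 7.54 at day 4. None of these passed the test, and each of the 3 stayed low in all 4 libraries.

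The 2 day 4 libraries differed from each other in genes of anterior endoderm and streak. Replicate 2 held the higher value of each of Foxa2 (18.6 against 151), Cer1 (9.85 against 101), T (4.93 against 57.8), Lhx1 (4.93 against 37.7), Kdr (50.5 against 214), Sox17 (8.52 against 39.6) and Gata6 (0 against 30.2), which were chosen after their values had been seen. The calls of Foxa2 (2.44 ± 0.77, adjusted p = 0.0229) and Cer1 (2.69 ± 0.77, adjusted p = 0.0128) rested on it: without day 4 replicate 2 the log2 change was 1.05 for Foxa2 (adjusted p = 0.382) and 1.23 for Cer1 (adjusted p = 0.277), and without day 4 replicate 1 it was 3.83 and 4.15. Without day 0 replicate 1 the adjusted p was 0.0606 and 0.0778, and for Foxa2 it was 0.116 without day 0 replicate 2. Nodal, Lefty1 and Lefty2 were lower in replicate 2 than in replicate 1.

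Neural genes went in both directions. Of 32 tested members 3 rose, 7 fell and 22 were not called; 4 fell without day 0 replicate 2. The progenitor genes Nes (nestin; 618 and 595 at day 0, then 1900.2 and 3171 at day 4; 2.01 ± 0.23, adjusted p = 4.35e-06) and Fabp7 (0 and 0.651 at day 0, then 24.6 and 28.9 at day 4; 2.83 ± 0.49, adjusted p = 0.000278) rose. Among the 7 that fell, the neuronal tubulin Tubb3 had 3340.3 and 3442 at day 0, then 802 and 587 at day 4 (-2.30 ± 0.28, adjusted p = 9.47e-06), the tubulin regulator Stmn2 had 4675 and 3869.7 at day 0, then 1016 and 948 at day 4 (-2.11 ± 0.24, adjusted p = 4.38e-06) and the growth cone protein Gap43 had 237 and 224 at day 0, then 55.4 and 35.2 at day 4 (-2.28 ± 0.30, adjusted p = 2.24e-05). Each of the 3 was detected in both day 0 libraries, which were higher than both of day 4. The early neural regulator Sox1 was not called, with 351 and 324 at day 0, then 172 and 317 at day 4, and both day 4 values stood below both of day 0, 1 of them by little. Pax6, a later neural regulator, had 145 and 400.1 at day 0, then 379.5 and 303 at day 4; it overlapped between days and was not called. The trophoblast regulator Cdx2 stayed low (5.03 and 4.56 at day 0, then 4.93 and 10.1 at day 4). In that list Krt18, a keratin of simple epithelia, rose from 341 and 182 to 1284 and 1654 (2.53 ± 0.48, adjusted p = 0.000668), and 2 of 20 tested trophoblast genes rose in all (1 without day 0 replicate 2).

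The 2-cell-like state is a rare, passing state of embryonic stem cells in which genes of the first embryonic divisions are transcribed. C129 day 0 libraries held high values of these genes, and they fell. Of 23 tested members 20 fell and the other 3 were not called, with a median log2 change of -3.71 (-3.76 without 4 genes listed at 0 in a whole group); 20 fell also without any 1 of the 4 libraries. All 23 members in the table passed the filter on low values, but a member could pass it through day 0 alone, so this count is a description. With a mean of at least 50 over all 30 libraries required, 11 were left to test and 11 fell. High values at C129 day 0 could carry a member past this filter too, so that count is a description as well. Many of these genes are near-identical copies between which reads cannot be assigned with certainty, so single values are uncertain. Zscan4 proteins are zinc finger factors of telomere maintenance, and Zscan4c lies on chromosome 7, 11005745 to 11010547, plus strand (GRCm38). The sum of Zscan4a, b, c, d and f was 39954 and 28811 at day 0, 2554 and 1117 at day 4 and 161 and 106 at day 8. For Zscan4c alone, the values were 14127 and 9862 at day 0, then 881 and 421 at day 4 (-4.27 ± 0.54, adjusted p = 1.46e-05), and for Zscan4d 2234 and 1728 at day 0, then 38.2 and 10.1 at day 4 (-6.34 ± 0.63, adjusted p = 9.89e-07). Tcstv1 (131 and 128 at day 0, then 2.46 and 0 at day 4; -4.71 ± 0.47, adjusted p = 1.01e-06) and Tdpoz4 (146 and 169 at day 0, then 13.5 and 5.03 at day 4; -3.68 ± 0.38, adjusted p = 1.71e-06), 2 other 2-cell genes, fell from lower levels.

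**Figure D3:**
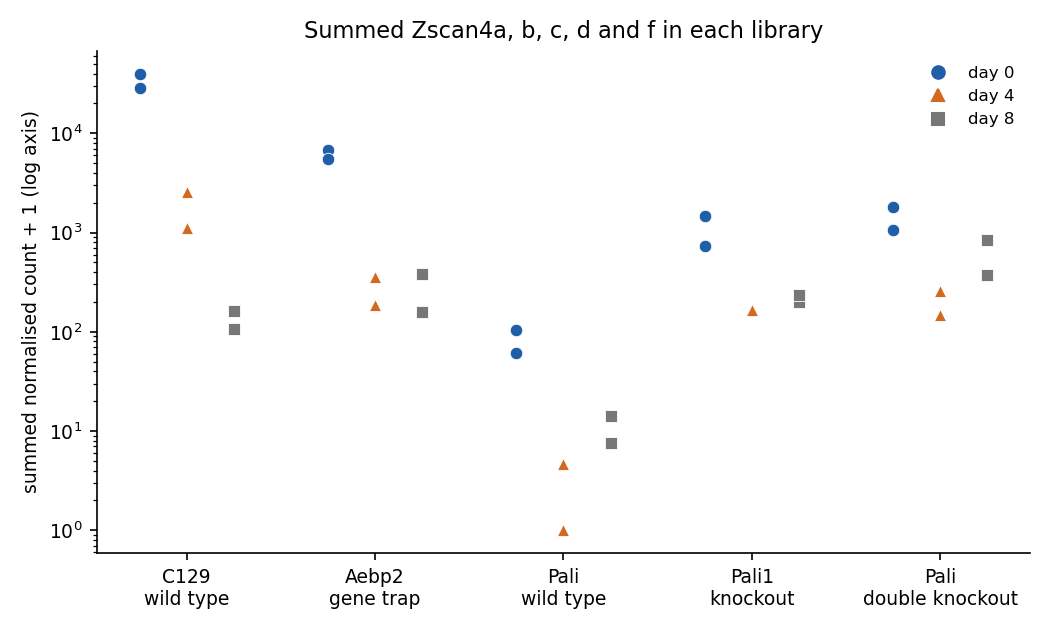
Summed normalised counts of 5 Zscan4 copies plus 1 (y axis, log scale) in each of the 30 libraries by line, circles for day 0, triangles for day 4 and squares for day 8. Both C129 wild type libraries of day 0 lie above all other libraries, and all 10 day 0 libraries lie above the day 4 libraries of their own line.

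Part of the germline list was lower too, beside 15% of all tested genes called lower. Of 30 tested members 12 fell and the other 18 were not called; 3 fell without day 0 replicate 1, and at most 8 without any other library. The median log2 change was -1.01, and 7 members had a positive change. With 5 members listed at 0 in a whole group, and a filter on low values that day 0 alone could pass, the count is a description. Tex19.1, which protects germ cells from transposons, had 1331 and 1271 at day 0, then 782 and 756 at day 4 (-0.76 ± 0.17, adjusted p = 0.00229). Tex11, a meiotic gene, had 507 and 472 at day 0, then 153 and 140.4 at day 4 (-1.71 ± 0.41, adjusted p = 0.00401).

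Subunits of the Polycomb repressive complexes PRC2 and PRC1 are the subject of the series. PRC2 genes were partly lower, and PRC1 genes were called about as often as the 29.1% of all tested genes. Of all tested genes 14% were called higher and 15% lower. Of 15 tested genes of PRC2, which methylates histone H3 lysine 27 at silent developmental genes, 1 rose, 6 fell and 8 were not called, with a median log2 change of -0.57 (4 fell without any 1 library, and the rise was lost without either day 4 library or day 0 replicate 2). The core subunit Eed had 6345 and 6250.4 at day 0, then 2117 and 1794 at day 4 (-1.69 ± 0.14, adjusted p = 1.49e-07). Suz12, the scaffold of the core, had 8103 and 8266 at day 0, then 6617 and 6331 at day 4 and was not called (-0.34 ± 0.15, adjusted p = 0.108). Ezh2, the methyltransferase, was listed at 31.5 and 82.7 at day 0 and at 0 in both day 4 libraries; it is listed at 0 in 23 of all 30 libraries, and a listed 0 can be a failed estimate, so no fold is given, although it is counted among the 6 that fell. Among accessory subunits Epop had 5004 and 6242 at day 0, then 1595 and 1079 at day 4 (-2.09 ± 0.16, adjusted p = 5.22e-08). Mtf2 had 2746 and 2239.9 at day 0, then 1143 and 1226 at day 4 (-1.06 ± 0.20, adjusted p = 0.000604). Jarid2 was lower by a smaller amount (-0.57 ± 0.17, adjusted p = 0.0171), and without any 1 library it was no longer called (adjusted p between 0.0536 and 0.0923). Aebp2, the subunit trapped in the other line, had 2611 and 2784 at day 0, then 1312 and 1748 at day 4 and was not called (-0.83 ± 0.33, adjusted p = 0.0675). Of 26 PRC1 genes 3 rose, 5 fell and 18 were not called (2 fell without day 0 replicate 1 and 1 without day 4 replicate 2); the demethylase and CpG reader Kdm2b fell (-1.84 ± 0.27, adjusted p = 6.35e-05) and the chromodomain subunit Cbx6 rose (0.79 ± 0.16, adjusted p = 0.000913).

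Known targets of Polycomb were called less often at this step than the 29.1% of all tested genes, but their values were low. Summed over 73 genes they reached 1674 and 2054 at day 0, then 1848 and 2027 at day 4. With a mean of at least 50 required, 22 were left to test, of which 2 rose and 3 fell. The low share of calls cannot be told apart from an effect of low counts. Of 61 tested developmental regulators 3 rose, 5 fell and 53 were not called; 0 to 3 rose and 3 to 5 fell without 1 library (0 rose without either day 0 library and 1 without day 4 replicate 2; 3 fell without day 0 replicate 2). Of 14 tested Hox genes, out of 38 in the table, 8 fell and the other 6 were not called (5 fell without day 0 replicate 1; median log2 change -1.25, and -1.48 without 5 genes listed at 0 in a whole group). The values are low, 418 and 323 summed over all Hox genes at day 0 and 97.4 and 81.9 at day 4, and a member could pass the filter on low values through day 0 alone, so this count is a description. Without the filter 16 of 38 fell, with a median log2 change of -0.52, and with a mean of at least 50 required 0 were left to test. Hoxb9 had 34 and 24.1 at day 0, then 1.23 and 1.26 at day 4 (-2.64 ± 0.37, adjusted p = 3.78e-05). Hoxd11 had 21.7 and 22.5 at day 0, then 1.25 and 0 at day 4 (-2.51 ± 0.38, adjusted p = 8.70e-05). Hoxb1, the first Hox gene of the streak, had 18.9 and 12.4 at day 0, then 12.3 and 11.3 at day 4 and was not called (-0.29 ± 0.39, adjusted p = 0.637).

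Imprinted genes, which are expressed from 1 parental copy, divided by gene, where 14% of all tested genes rose and 15% fell. Of 39 tested 11 rose, 6 fell and 22 were not called, and without any 1 library 2 or 3 fell (2 without day 4 replicate 1). Nnat (neuronatin), a small membrane protein, had 39.4 and 65.3 at day 0, then 620 and 756 at day 4 (3.65 ± 0.34, adjusted p = 5.76e-07). Magel2 had 34 and 25.4 at day 0, then 230.3 and 433 at day 4 (3.26 ± 0.42, adjusted p = 1.72e-05). Its neighbour Snrpn, a splicing protein gene of the same imprinted region, had 2049 and 2143 at day 0, then 4444 and 6871 at day 4 (1.40 ± 0.20, adjusted p = 5.09e-05). Grb10, an adaptor that restrains insulin signalling, fell from 862 and 841 to 161 and 77.2 (-2.89 ± 0.32, adjusted p = 3.96e-06). The antisense RNA gene Kcnq1ot1 fell from 48349 and 50456 to 26749.5 and 24317 (-0.95 ± 0.23, adjusted p = 0.00404). The libraries mark strand, but no source used here says whether the counting used it, so reads of Kcnq1ot1 and of the gene it overlaps may not be separated.

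Changes in the cell cycle and metabolism were smaller. The counts that follow stand beside 14% of all tested genes called higher and 15% called lower. Of 32 tested cell cycle genes 2 rose and 11 fell (5 without day 4 replicate 2 and 6 without day 0 replicate 1). Ccne1, cyclin E1, had 3066 and 4119 at day 0, then 1877 and 1823 at day 4 (-0.94 ± 0.16, adjusted p = 0.00022). Ccnd3, cyclin D3, had 1963 and 2499 at day 0, then 1102 and 821 at day 4 (-1.22 ± 0.18, adjusted p = 4.88e-05). Cdk6, a partner of the D cyclins, rose (1.06 ± 0.14, adjusted p = 2.83e-05), as did the inhibitor gene Cdkn1b (0.62 ± 0.09, adjusted p = 7.84e-05). Tdh, the threonine dehydrogenase on which mouse embryonic stem cells depend, fell from 12611 and 13688 to 6233 and 4727 (-1.27 ± 0.15, adjusted p = 6.39e-06). Shmt2, the mitochondrial serine hydroxymethyltransferase, fell too (-1.34 ± 0.21, adjusted p = 0.000117). Gldc, of the glycine cleavage system, rose (0.83 ± 0.16, adjusted p = 0.000762). In glycolysis 7 of 32 genes fell (4 without day 0 replicate 1) and the others were not called. Among those that fell were Pgam1 (-0.77 ± 0.13, adjusted p = 0.000288) and the glucose transporter gene Slc2a3 (-0.83 ± 0.18, adjusted p = 0.00231).

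Outside the lists, genes of several kinds rose. Sema6a, a semaphorin of axon guidance, had 19.3 and 32.4 at day 0, then 1104 and 1461 at day 4 (5.45 ± 0.30, adjusted p = 2.67e-09). Vrtn, which sets vertebra number, had 47.2 and 78.2 at day 0, then 2011 and 1979 at day 4 (4.95 ± 0.44, adjusted p = 3.57e-07). Cthrc1, a secreted protein gene with a collagen repeat, had 21.4 and 7.16 at day 0, then 477 and 440.1 at day 4 (4.78 ± 0.45, adjusted p = 5.76e-07). All 3 were higher in both day 4 libraries than in both of day 0. Rgl3 had 0 and 2.61 at day 0, then 156 and 182 at day 4 (5.07 ± 0.39, adjusted p = 8.63e-08). Kif1a, a motor of axonal transport, had 0 and 112 at day 0, then 1839.9 and 2487 at day 4 (6.64 ± 1.06, adjusted p = 0.000137), and its log2 change was 4.21 without day 0 replicate 1. The falls were as mixed. Mras, a Ras-like GTPase gene, had 1499.7 and 1447 at day 0, then 38.2 and 40.2 at day 4 (-5.10 ± 0.38, adjusted p = 5.22e-08). Myo1f, an unconventional myosin gene, had 975 and 931 at day 0, then 40.6 and 25.1 at day 4 (-4.73 ± 0.38, adjusted p = 1.31e-07). Cobl, an actin nucleator gene, had 1144 and 852 at day 0, then 37 and 16.4 at day 4 (-5.10 ± 1.07, adjusted p = 0.00145). Day 0 stood above day 4 in every library of these 3. Lipe, hormone-sensitive lipase, had 103 and 158 at day 0, then 0 and 1.26 at day 4 (-4.84 ± 0.46, adjusted p = 6.54e-07). Only 2 genes were listed at 0 in both libraries of one day and at 200 or more in both of the other. Slc40a1, the iron exporter ferroportin, was at 787 and 504 at day 4, and Esrra, an orphan nuclear receptor, at 241 and 311; these zeros too may be failed estimates.

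The day 8 libraries of genes called at day 4 lay on either side of those of day 4. Of the 2205 genes that were higher at day 4, 856 stood higher again in both day 8 libraries than in both day 4 libraries, and 816 stood lower; of the 2360 that were lower, 926 stood lower again at day 8 and 701 higher. For the other 533 and 733 the libraries of day 8 and day 4 overlapped. This is a count of libraries that do not overlap, with no test. The share over all tested genes was not counted, and the genes were chosen by the same day 4 values. The counts therefore cannot tell how many genes went on or turned back. Fgf5 stood at 647 and 162 at day 8, Dnmt3b at 9516 and 3995 and Pou3f1 at 293 and 202, all below day 4. Sall2 (7375 and 7758) and Sox11 (9849 and 11255) stood above it. Vim, which had fallen, was back at 3943 and 6308, and Lama1 at 1394 and 1328. Pou5f1 (5742 and 2525), Nodal (677 and 364) and Fgf4 (469 and 269) stood well below day 4, so these 3 were lower at day 8 than at either earlier day.

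**Figure D4:**
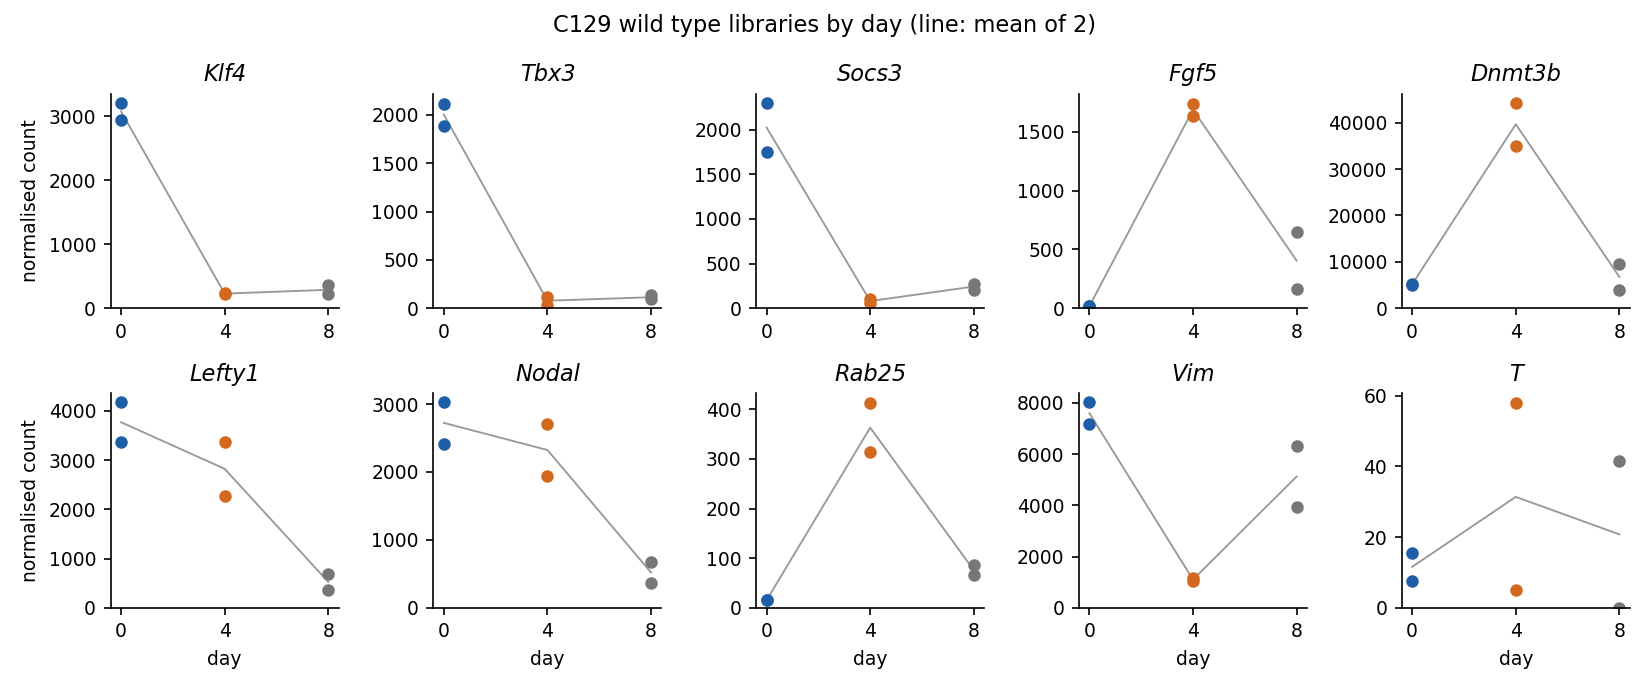
Normalised counts (y axes, linear, from 0) of 10 genes in the C129 wild type libraries of day 0, 4 and 8 (x axes), with points for single libraries and lines through the means of 2. Fgf5, Dnmt3b and Rab25 are highest at day 4, Klf4, Tbx3 and Socs3 fall by day 4 and stay low, and the 2 day 4 values of T lie apart (4.93 and 57.8).

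Pali wild type went through the same step with partly the same genes. In that line 2302 genes were higher and 1994 lower at day 4, which is 14.7% and 12.7% of those tested and 27.3% together. Of the genes higher in C129, 1181 were higher in Pali wild type as well, 53.6% of the C129 and 51.3% of the Pali calls; of the lower ones 1032 were shared, 43.7% and 51.8%. Opposite calls were made for 102 genes. The log2 changes of the 2 lines, which share no library, correlated at 0.43 over 15712 genes (Pearson, a description across genes that all come from the same libraries). Fgf5 in Pali wild type had 4.52 and 5.51 at day 0, then 2752 and 3140.4 at day 4. Klf4 had 3918 and 5329 at day 0, then 259 and 347 at day 4 there. Socs3 had 2694 and 2699.7 at day 0, then 179 and 228 at day 4. The difference between the lines was not called for any of these 3, which does not show that their courses were the same.

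The courses differed for 1413 genes by the test of the difference itself, 8.99% of those tested, with 539 (3.43%) higher and 874 (5.56%) lower in C129 than in Pali wild type; this count fell to between 705 and 1258 without 1 of the 8 libraries and to 260 when those 8 alone set the spread. It was 705 without day 0 replicate 1 of C129, 791 without its day 4 replicate 1 and 852 without day 0 replicate 1 of Pali wild type. Targets of p53, the factor that answers DNA damage, were among the lists with most calls. Of 21 tested members 12 had a lower course in C129 and the other 9 were not called; 9 to 12 were lower without 1 library, and 5 when the 8 libraries alone set the spread. Their median log2 change was -0.20 in C129 and 0.93 in Pali wild type, where 11 rose; in C129 1 rose and 6 fell, with 2 falls without day 0 replicate 1 and 3 without day 0 replicate 2 or day 4 replicate 2; the rise was lost without any of these last 2 or day 4 replicate 1. Btg2, an antiproliferative gene, had 895 and 767 at day 0, then 643 and 902 at day 4 in C129. In Pali wild type Btg2 had 256 and 245 at day 0, then 1456 and 2009 at day 4 (difference -2.87 ± 0.33 (SE), adjusted p = 9.79e-05). Trp53inp1, a regulator of autophagy, had 10359 and 8205 at day 0, then 8715 and 9010.4 at day 4 in C129. In Pali wild type Trp53inp1 had 3617 and 3652 at day 0, then 8284 and 9519 at day 4 (difference -1.34 ± 0.16 (SE), adjusted p = 0.000121). Eda2r, a receptor gene of the tumour necrosis factor family, had 1539 and 1727 at day 0, then 1304 and 1246 at day 4 in C129. In the Pali line Eda2r had 614 and 722 at day 0, then 1239 and 1311 at day 4 (difference -1.29 ± 0.15 (SE), adjusted p = 9.79e-05). These 3, chosen after their values were seen for the lowest p of the difference in the list, were higher at day 0 in C129 than in Pali wild type in all libraries. At day 4, Trp53inp1 and Eda2r were near the same level in both lines.

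The 2-cell-like genes also had a lower course in C129, for 14 of 23 members. This count was 9 without day 0 replicate 1 of C129 or day 4 replicate 1 of Pali wild type, at most 12 without any other library and 8 when the 8 libraries alone set the spread, and it moved with the pseudocount, to 9 with 1 and 20 with 16. Summed Zscan4 copies were 104 and 59.8 at day 0 and 3.63 and 0 at day 4 in Pali wild type. The 23 members summed to 672 and 656 at day 0 in that line, with 4 and 10 of them listed at 0. In C129 they summed to 50145 and 36716 at day 0, and a member could pass the filter on low values through those libraries alone. The genes thus had little room to fall in Pali wild type, and the count of 14 is a description that follows the day 0 levels. Cholesterol synthesis showed the opposite: 9 of 25 members had a higher course in C129 and the others were not called, but 1 of 25 when the 8 libraries alone set the spread. Sqle, squalene epoxidase, had 1779 and 1957 at day 0, then 3994 and 3273 at day 4 in C129. In Pali wild type Sqle had 3296 and 2504 at day 0, then 2623 and 2663 at day 4 (difference 1.07 ± 0.15 (SE), adjusted p = 0.000579). There, 13 of the 25 fell; in C129 3 rose and 1 fell (6 rose without day 4 replicate 2, 2 fell without day 4 replicate 1). The 9 became 2 without day 4 replicate 1 of C129, 2 without its day 0 replicate 1 and 2 without day 0 replicate 1 of Pali wild type, 5 without C129 day 0 replicate 2 or either Pali day 4 library, 6 without Pali day 0 replicate 2 and 13 without C129 day 4 replicate 2.

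Tagln and Acta2, genes of contractile cells, and Sparc had a lower course in C129; Acta2 was chosen after its values were seen. Tagln, an actin-binding protein of smooth muscle, had 65.4 and 82.7 at day 0, then 106 and 169.8 at day 4 in C129. In Pali wild type Tagln had 26.3 and 26.7 at day 0, then 2098 and 2804 at day 4 (difference -5.48 ± 0.91 (SE), adjusted p = 0.0015). Acta2, smooth muscle actin, had 37.7 and 18.2 at day 0, then 20.9 and 27.7 at day 4 in C129. In the Pali line Acta2 had 9.86 and 8.55 at day 0, then 200.3 and 218 at day 4 (difference -4.13 ± 0.78 (SE), adjusted p = 0.00351). Sparc fell in C129 and had 2196 and 2273 at day 0, then 2832 and 3686 at day 4 in Pali wild type (difference -1.83 ± 0.23 (SE), adjusted p = 0.000216). Of 35 basement membrane and collagen genes 8 had a lower course in C129 and the others were not called; this became 3 without C129 day 0 replicate 1, 3 without Pali day 0 replicate 1, 4 without Pali day 4 replicate 2 and 5 without C129 day 4 replicate 1, and 2 when the 8 libraries alone set the spread. Fibroblast markers moved with these genes in Pali wild type, where 9 of 16 tested markers rose, against 2 that rose and 2 that fell in C129 (0 fell without day 0 replicate 1 and 1 without any other library); their part in the result was not tested. The ligand gene Fgf8 went the other way, at 123 and 101 at day 4 in C129. In the Pali line Fgf8 was at 0 and 0 at day 0, then 4.78 and 4.24 at day 4 (adjusted p of the difference = 0.00586).

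**Figure D5:**
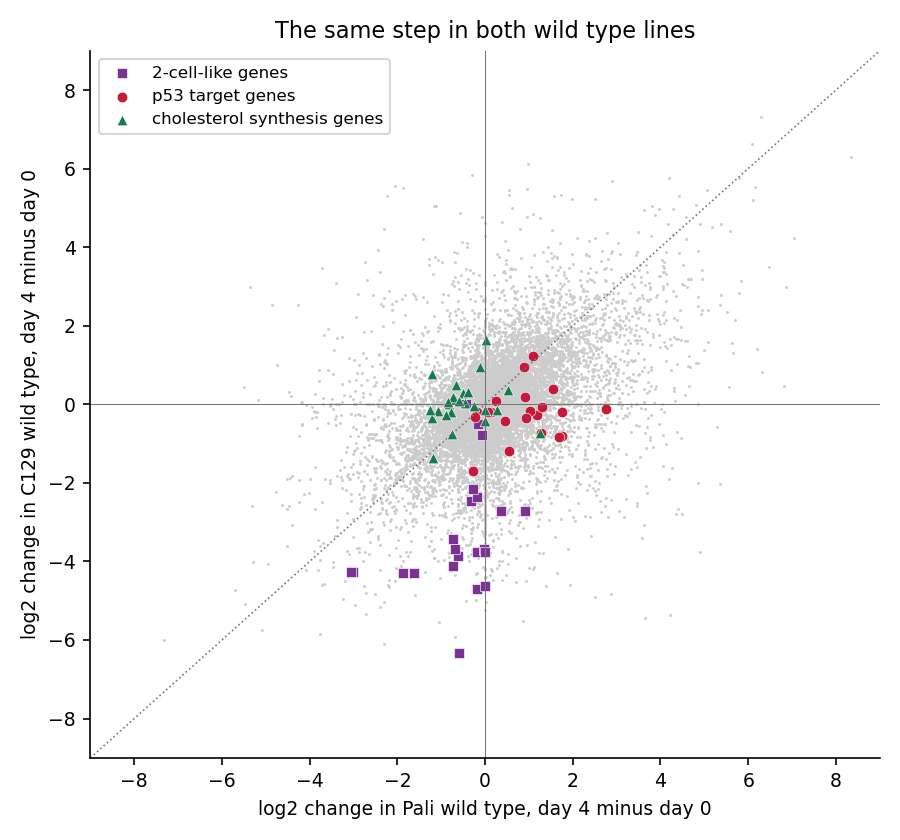
Log2 change from day 0 to day 4 in Pali wild type (x axis) against that in C129 wild type (y axis), both of normalised count + 4, for 15712 tested genes (grey points). Squares mark 2-cell-like genes, circles p53 targets and triangles cholesterol synthesis genes; the dotted line marks equal change, and p53 targets lie mostly below it and cholesterol genes mostly above.

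The course of C129 was also set beside that of the Aebp2 gene trap. Aebp2 had 30.5 and 35.2 at day 0, then 17.1 and 44.9 at day 4 in the trap, beside 2611 and 2784 at day 0, then 1312 and 1748 at day 4 in C129, so its level was lower in the line labelled as the trap at both days. The courses of the 2 lines differed for 162 genes, 1.03% of those tested, 43 of them higher and 119 lower in C129; without 1 of the 8 libraries between 35 and 204 were called (35 without C129 day 0 replicate 1, 64 without C129 day 4 replicate 1, 70 without trap day 0 replicate 2, 89 without trap day 4 replicate 1), and 6 when those 8 alone set the spread. The 4 genes named next were still called without any 1 of the 8 libraries. Igfbp7, a secreted binding protein gene, had 159 and 116 at day 0, then 4.56 and 7.88 at day 4 in C129. In the trap Igfbp7 had 7.32 and 5.61 at day 0, then 7.04 and 6.36 at day 4 (difference -3.83 ± 0.51 (SE), adjusted p = 0.00164). Fzd10, a Frizzled receptor gene, had 725 and 608 at day 0, then 693 and 487 at day 4 in C129. In the trap Fzd10 had 602 and 667 at day 0, then 91.4 and 139 at day 4 (difference 2.26 ± 0.38 (SE), adjusted p = 0.00823). Plcl2 had 111 and 84 at day 0, then 248 and 298 at day 4 in C129. In the trap Plcl2 had 0 and 0 at day 0, then 161 and 172 at day 4. Bag2, a cochaperone gene, had 113 and 99 at day 0, then 169.9 and 215 at day 4 in C129. In the trap Bag2 had 0 and 0 at day 0, then 171 and 190 at day 4. Both were called (adjusted p = 6.57e-07 and 2.16e-06), and no fold is given against a group listed at 0. Both calls rest on zeros in the trap at day 0, which can be failed estimates. Of 23 naive genes 1 had a different course in the trap by limma, and of 25 primed genes 0, beside 1.03% of all tested genes. This does not show that the courses of the others were the same. The median difference was 0.77 for the naive list and -0.52 for the primed list, beside -0.02 over all tested genes. At an unadjusted p below 0.05 in the same limma test, 10 naive and 5 primed genes differed. The share of all tested genes at that threshold was not counted.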

How the data were processed

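RNA was measured in 30 libraries of 5 lines at 3 time points, 2 biological duplicates per group per the labels. Libraries were made from ribosome-depleted total RNA with a strand-marking kit, per the labels' protocols. The authors deposited normalised counts per gene (a signal value per gene symbol, 20563 genes); kallisto 0.43.1, HISAT2 2.0.5, DESeq2 and mm10 are named without roles in the submitters' processing notes, and no source used here gives the annotation. Steps between low values gave whole reads for 82.5% to 85.6% of them in the 4 libraries compared (tolerance 0.001), too few to recover counts, so the depth in reads is an estimate. A gene was tested where at least 2 libraries reached 10 (15712 genes). limma 3.58.1 in R 4.3.3 was run on log2(value + 4) with 15 group means over all 30 libraries (15 residual degrees of freedom), a trended and robust prior, and Benjamini-Hochberg adjustment; the script was tested on simulated data. The difference between courses is an interaction contrast in that fit. Genes were named as the 4 list members per direction with the lowest p, the 15 largest changes per direction at a mean of at least 100 with duplicates within 2-fold, the 8 largest interactions per direction and a fixed set of markers, together with genes that the text says were chosen after their values were seen. One gene of the fixed set is not reported here. Members and lists were chosen with earlier results of these data known. Alternatives were other pseudocounts, filters, scalings, a replicate block, left-out libraries and smaller fits. Promoter windows are from RefSeq (GRCm38.p6) and matched 78.4% of tested genes.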

Additional observations from a re-analysis of the deposited data

Results flagged for a closer look

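The test of the difference itself called 1413 genes between the courses of C129 and Pali wild type. Among those with the largest differences, the course of C129 was higher for Utp4 (7.61 on the log2 scale), Med16 (5.43), Fam196b (4.46), Tecpr1 (3.68), Fn3krp (3.41), the mitotic kinesin gene Kif15 (3.32) and Pof1b (3.12). It was lower for the arrestin-domain gene Arrdc2 (-6.70), the chaperone gene Hspa4l (-5.96), Tagln (-5.48) and the replication checkpoint gene Clspn (-5.43). Kif15, Arrdc2 and Tagln were still called without any 1 of the 8 libraries. Utp4 had 0 and 1.3 at day 0, then 266 and 172 at day 4 in C129, against 73.4 and 5.34 at day 0, then 1.81 and 3.29 at day 4 in Pali wild type, and it, Fam196b and Fn3krp each lost their call without 7 of the 8 libraries in turn (Fn3krp fell to 1.83 without C129 day 0 replicate 1). Hspa4l lost it without 6, with the adjusted p at 0.209 without Pali day 0 replicate 1, and Pof1b without 5, with 0.0751 without the same library. Tecpr1 lost it without 3 (0.072 without Pali day 0 replicate 1), Med16 without 2 (0.0739 without C129 day 0 replicate 1) and Clspn without 2 (0.0528 without Pali day 0 replicate 2).

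By list, 12 p53 targets, 14 genes of the 2-cell-like state, 9 of cholesterol synthesis and 8 of basement membrane and collagens differed between these courses. The count of 2-cell-like genes is a description, because these genes were already low at day 0 in Pali wild type.

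Between C129 and the Aebp2 gene trap the same test called 162 genes. The course of C129 was higher for Rpap2 (4.21), Zkscan6 (2.91), Krt42 (2.89), Ankrd50 (2.44), Ngfr (2.33), Id4 (2.30) and Fzd10 (2.26), and lower for Plxnb1 (-5.87), Arrdc2 (-5.21), Lonrf3 (-5.03) and Igfbp7 (-3.83). Fzd10 and Igfbp7 were still called without any 1 of the 8 libraries. Each of the others lost its call without at least 1, among them C129 day 0 replicate 1 in every case, where the adjusted p was 0.0614 for Plxnb1, 0.0747 for Ankrd50, 0.0826 for Id4 and Ngfr, 0.143 for Krt42, 0.145 for Arrdc2, 0.15 for Rpap2 and 0.154 for Lonrf3 and Zkscan6. Without C129 day 4 replicate 2 the difference of Arrdc2 was -3.38 and that of Lonrf3 -2.88.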

How the results depend on the processing

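The 4565 calls at day 4 became 2323 when only the 4 libraries compared set the spread, and 3215 to 3700 without 1 of them. The 1413 differences from Pali wild type became 260 with 8 libraries and 705 to 1258 without 1. The 162 differences from the Aebp2 gene trap became 6 with 8 libraries, 284 with a pseudocount of 16 and 35 to 204 without 1. A left-out library leaves a lone sample, which is assumed to vary like the other groups. Deviations of same-numbered libraries correlated at -0.02 in C129, 0.03 in Pali wild type and 0.05 in the trap, so the numbers do not pair them; with a replicate block the counts were 4670, 1505 and 163. Of 231 named genes called at day 4, 136 were called under every alternative run and 95 were lost under at least 1, of which 77 without 1 library; 0 of them changed sign. Among uncalled genes the log2 change of Dppa3 ran from -0.17 to 1.04 without 1 library, that of T from -0.75 to 2.04, Sox17 from -0.12 to 1.82, Gata6 from -2.59 to 0.50 and Pax6 from -0.24 to 1.21. The cause of these changes was not tested, beyond the smaller number of samples. Depth limits genes near 10 counts, and 326 tested genes had duplicates over 8-fold apart at one of the days, of which 12 were called.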

Other observations

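Of 17 tested immediate early genes, which respond within minutes to handling and growth factors, 4 rose and the other 13 were not called. Of all tested genes 14% were called higher and 29.1% were called in either direction. The median log2 change of the list was 0.41. Without day 0 replicate 2 or either day 4 library 2 rose. Of 61 replication-dependent histone genes 7 rose and 2 fell (median log2 change 0.28); without 1 library 3 to 5 rose and 0 to 2 fell, with 3 rises without day 0 replicate 1 or day 4 replicate 1 and 4 without day 4 replicate 2. Of 19 genes of the amino acid and integrated stress response 2 fell and the others were not called. Of 15 blood and endothelial markers 3 rose.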
